A study of Mus musculus with 8 samples.

Results

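The 9 genes followed here mark eosinophils or direct their formation: the surface proteins used for sorting (Siglecf, Cd101), the receptors Il5ra, Ccr3 and Il1rl1, the transcription factors Gata2, Gata1 and Cebpe, and the pseudokinase gene Trib1. They were chosen by symbol, each symbol matched 1 Ensembl identifier, and together they are 9 of the 54446 genes in the count tables, 21197 of which had a count in at least 1 library. RNA of sorted eosinophils of C57BL/6 mice, from what the series calls an asthma model, was counted by CEL-Seq, which reads the 3' ends of transcripts. The 8 libraries were labelled SiglecFhi/CD101+ (replicates 1 and 2), Siglec-Fint/CD101- (replicates 1 and 2) and resident (replicates 3 to 6). The labels name no genotype, age, sex, treatment, tissue or animal for any library, and the series title places the resident cells in lung. Whether replicates are separate mice or pools is not stated, so the spread behind each p-value may be technical.

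Eosinophils form in the bone marrow from progenitors that carry the interleukin-5 receptor, whose alpha chain Il5ra binds the cytokine while the common beta chain passes the signal on. GATA1, GATA2 and C/EBP epsilon switch on eosinophil genes during that step, and in mice TRIB1, a scaffold that brings C/EBP alpha to the ubiquitin ligase COP1 for degradation, shapes the granulocyte lineages. Mature cells are drawn into tissue through CCR3, the eotaxin receptor, and respond to interleukin-33 through ST2, the product of Il1rl1. Siglec-F, a lectin that binds sialic acids, is found on mouse eosinophils and alveolar macrophages, and CD101, an immunoglobulin-like membrane protein, is used with it to separate eosinophil subsets in mouse lung. Mast cells and basophils share Gata2 and Il1rl1 with eosinophils, and erythroid cells and megakaryocytes share Gata1.

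Library size and composition differed with the groups. Total counts were 1513517 to 3109428 in SiglecFhi/CD101+ libraries, 1517159 to 2990294 in Siglec-Fint/CD101- libraries and 5600610 to 11583550 in resident libraries. Genes of the mitochondrial genome held 70.6% to 82.2% of the counts in SiglecFhi/CD101+ libraries, 69.9% to 83.9% in Siglec-Fint/CD101- libraries and 38.6% to 61.8% in resident libraries. Counts outside those genes were 444902 to 552121, 456930 to 481468 and 2137819 to 5296468 in the same order of groups, so every subset library held fewer such counts than any resident one. Levels are given as raw counts and as CPM (counts scaled to a TMM-adjusted library size), and 3 counts over a group, used as a floor, equal 0.851 CPM in SiglecFhi/CD101+, 1.0 CPM in Siglec-Fint/CD101- libraries and 0.0625 CPM in resident ones. In bulk RNA, fewer cells of a type and less RNA of a gene per cell cannot be told apart. The part of depth in the differences below was not tested. With mitochondrial genes left out of the fit, edgeR's count of called genes among the 9 was again 0 in each comparison, and for Gata2 in Siglec-Fint/CD101- against resident libraries the log2 fold change was -3.97, beside -4.02 with them in.

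The genes lie on 8 chromosomes of GRCm38, and no other gene of the annotation used overlaps any of them on either strand. Siglecf spans chr7:43351341-43359531 (plus strand), Cd101 chr3:100993529-101029556 (minus), Il5ra chr6:106710357-106749037 (minus), Ccr3 chr9:124021972-124031689 (plus) and Il1rl1 chr1:40429570-40465415 (plus). Gata2 spans chr6:88193891-88207032 (plus), Gata1 chrX:7959260-7978071 (minus), Cebpe chr14:54710360-54712174 (minus) and Trib1 chr15:59648350-59657099 (plus). Because GATA factors stand among the followed genes, the 250 bases before each annotated start were searched for the GATA motif, taken as AGATAA or AGATAG or TGATAA or TGATAG on either strand. RefSeq promoters (GRCm38.p6) were held for 7 of the 9 genes, 9 sequences in all, and 5 of the 9 sequences contained a match, against 26.5% of the 32851 promoters in the table. The 4 printed here belong to the sort markers, to the receptor of the cytokine in the series title, and to the gene with the most matches, in lower case with the motif on either strand in capitals. The upstream start of Il1rl1 (chr1:40429320-40429569, plus strand) had 5 matches, 3 on the gene's strand and 2 on the other, none overlapping another, and 14 promoters of the table (0.0426%) had that many or more. Cd101 (chr3:101029554-101029803, minus) and Il5ra (chr6:106749038-106749287, minus) had 1 match each, and Siglecf (chr7:43351091-43351340, plus) had 0. The matches describe these letters only.
Siglecf: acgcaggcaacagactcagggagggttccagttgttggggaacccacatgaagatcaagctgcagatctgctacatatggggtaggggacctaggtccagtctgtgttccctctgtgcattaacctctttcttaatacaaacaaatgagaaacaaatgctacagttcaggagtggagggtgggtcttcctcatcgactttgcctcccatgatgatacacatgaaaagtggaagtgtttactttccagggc
Cd101: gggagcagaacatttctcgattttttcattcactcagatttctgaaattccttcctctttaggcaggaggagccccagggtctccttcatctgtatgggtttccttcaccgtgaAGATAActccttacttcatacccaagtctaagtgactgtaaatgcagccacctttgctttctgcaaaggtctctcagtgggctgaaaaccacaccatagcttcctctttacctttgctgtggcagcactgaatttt
Il5ra: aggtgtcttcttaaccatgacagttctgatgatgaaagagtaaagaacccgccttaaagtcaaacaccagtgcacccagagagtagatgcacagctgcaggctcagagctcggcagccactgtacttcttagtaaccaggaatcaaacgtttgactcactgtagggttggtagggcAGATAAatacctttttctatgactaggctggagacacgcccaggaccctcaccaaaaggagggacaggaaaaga
Il1rl1, upstream start: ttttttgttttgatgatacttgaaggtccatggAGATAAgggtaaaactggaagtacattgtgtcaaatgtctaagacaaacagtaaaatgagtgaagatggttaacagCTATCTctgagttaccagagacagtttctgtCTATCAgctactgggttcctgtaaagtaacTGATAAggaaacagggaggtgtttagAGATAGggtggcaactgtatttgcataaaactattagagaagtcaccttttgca
The second start of Il1rl1 had 1 match, Ccr3 had 2, and the promoters of Gata1 and Gata2, with 2 starts for Gata2, had 0. At least 2 matches occurred in 6.4% of the table's promoters.

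**Figure D1:**
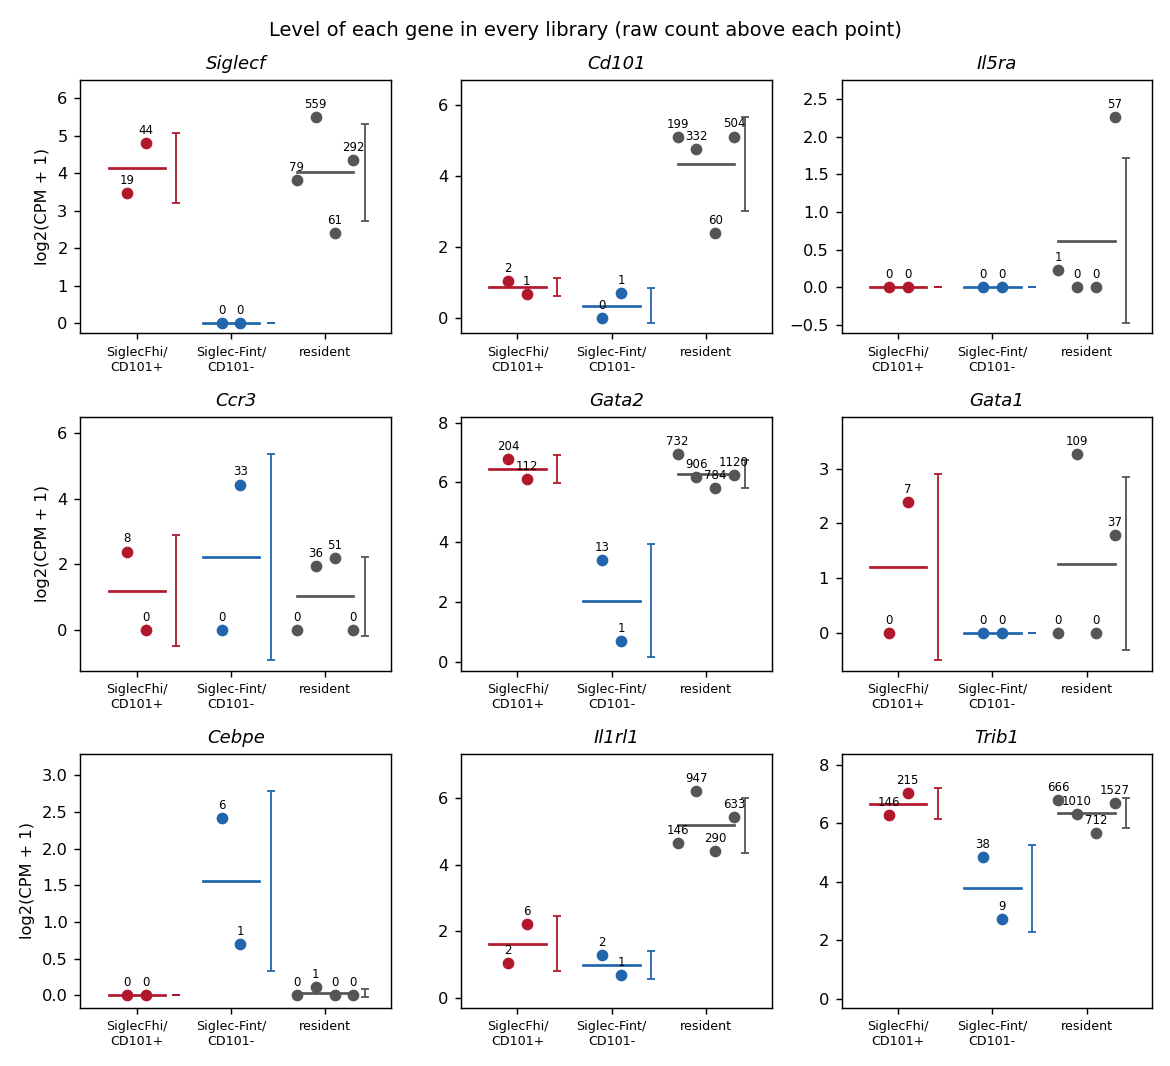
Level of each of the 9 genes in every library as log2(CPM + 1), with the raw count above each point, the group mean as a horizontal line and ± 1 SD beside it (SiglecFhi/CD101+ and Siglec-Fint/CD101-, n = 2 each, and resident, n = 4). Siglecf, Gata2 and Trib1 lie low in Siglec-Fint/CD101- libraries only, Cd101 and Il1rl1 lie low in both subsets, and Il5ra, Ccr3, Gata1 and Cebpe have counts in some libraries and 0 in others of the same group.

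Siglecf, the gene of the lectin that names the sort, was read in both SiglecFhi/CD101+ libraries, in neither Siglec-Fint/CD101- library and in every resident library. It had 19 and 44 counts (10.1 and 26.8 CPM) in SiglecFhi/CD101+ libraries, 0 and 0 counts in Siglec-Fint/CD101- libraries, and 79, 559, 61 and 292 counts (13.2, 43.9, 4.28 and 19.4 CPM) in resident libraries. The SiglecFhi/CD101+ values fell inside the resident range, and resident replicate 4 held 56.4% of the group's counts. Means were 18.5 ± 11.9 CPM in SiglecFhi/CD101+, 0 in Siglec-Fint/CD101- libraries and 20.2 ± 17.0 CPM in resident ones, so resident stood first and SiglecFhi/CD101+ second, closer to each other than either SD. Outside mitochondrial genes SiglecFhi/CD101+ stood first, at 66.7 ± 45.6 CPM of those counts (SD, n = 2), against 0 in Siglec-Fint/CD101- libraries and 54.4 ± 42.4 in resident ones (n = 4), so the order of the upper pair depended on the denominator.

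Cd101, the other sort marker, was near 0 in both subsets, including the one sorted as CD101+. It had 2 and 1 counts (1.06 and 0.61 CPM) in SiglecFhi/CD101+ libraries, 0 and 1 counts (0 and 0.621 CPM) in Siglec-Fint/CD101- libraries, and 199, 332, 60 and 504 counts (33.3, 26.1, 4.21 and 33.5 CPM) in resident libraries. Every subset library lay below every resident library, and the subsets overlapped each other. Between the libraries labelled SiglecFhi/CD101+ and Siglec-Fint/CD101- the pooled ratio of Cd101 RNA was 2.54, within counting error (exact 95% counting interval 0.204 to 133), so the RNA does not bear out the CD101+ label. The gate is set on surface protein and these are transcript ends, so the value checks the RNA and not the sort itself, and whether each table carries the right label cannot be settled from the files. All values below are those of the groups as labelled. Counting intervals cover counting error only.

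Il5ra, the chain that binds interleukin-5, was read in 2 of the 8 libraries. Its counts were 0 and 0 in SiglecFhi/CD101+ libraries, 0 and 0 in Siglec-Fint/CD101- libraries, and 1, 0, 0 and 57 in resident libraries. Resident replicate 6, at 3.79 CPM, held 98.3% of them, and the other resident libraries overlapped both subsets at or near 0. At the pooled resident level, 4.26 counts would have been met over the SiglecFhi/CD101+ libraries and 3.61 over the Siglec-Fint/CD101- libraries, close to the floor of 3 counts. Taking 3 counts for each group at 0, Il5ra was at least 1.42-fold lower in SiglecFhi/CD101+ and at least 1.2-fold lower in Siglec-Fint/CD101- than in resident libraries pooled, bounds that rest on resident replicate 6. An exact two-sided permutation test of log2(CPM + 1) gave p = 0.8 for either subset against resident libraries, where the smallest p possible is 0.133. The whole list of mast cell and basophil markers summed to 225 CPM in resident replicate 6, against 51.1, 58.2 and 97.5 CPM in replicates 3, 4 and 5. Within the list Cpa3 had 738 counts in replicate 6, against 6, 72 and 12, while Kit, at 13.6 CPM, had its lowest resident level there. Their part in the Il5ra value was not tested.

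Ccr3, the receptor for eotaxins, was read in 1 library of each subset and in 2 resident libraries. It had 8 and 0 counts (4.24 and 0 CPM) in SiglecFhi/CD101+ libraries, 0 and 33 counts (0 and 20.5 CPM) in Siglec-Fint/CD101- libraries, and 0, 36, 51 and 0 counts (0, 2.83, 3.58 and 0 CPM) in resident libraries. All 3 groups therefore overlapped at 0. Means were 2.12 ± 3.0 CPM in SiglecFhi/CD101+, 10.2 ± 14.5 CPM in Siglec-Fint/CD101- libraries and 1.6 ± 1.87 CPM in resident ones, so Siglec-Fint/CD101- stood first, and no neighbours in the order differed beyond their SD.

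Il1rl1, the gene of the interleukin-33 receptor ST2, followed the pattern of Cd101. It had 2 and 6 counts (1.06 and 3.66 CPM) in SiglecFhi/CD101+ libraries, 2 and 1 counts (1.45 and 0.621 CPM) in Siglec-Fint/CD101- libraries, and 146, 947, 290 and 633 counts (24.4, 74.4, 20.3 and 42.1 CPM) in resident libraries. Both subsets lay below every resident library and overlapped each other, with means of 2.36 ± 1.84 CPM in SiglecFhi/CD101+, 1.04 ± 0.589 CPM in Siglec-Fint/CD101- libraries and 40.3 ± 24.6 CPM in resident ones. Il1rl1 has 5 annotated coding transcripts with as many different ends, and the tables give 1 value per gene, so membrane-bound and secreted forms of ST2 were not separated.

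Among the transcription factors, Gata2 was the one read in every library. It had 204 and 112 counts (108 and 68.3 CPM) in SiglecFhi/CD101+ libraries, 13 and 1 counts (9.45 and 0.621 CPM) in Siglec-Fint/CD101- libraries, and 732, 906, 784 and 1120 counts (122, 71.2, 55.0 and 74.5 CPM) in resident libraries. The Siglec-Fint/CD101- libraries lay below all others, and SiglecFhi/CD101+ libraries spread over the resident range. Mean levels were 88.2 ± 28.2 CPM in SiglecFhi/CD101+ (SD, n = 2), 5.04 ± 6.24 CPM in Siglec-Fint/CD101- (n = 2) and 80.7 ± 29.0 CPM in resident libraries (n = 4), so the upper pair differed by less than its SD.

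Gata1, whose product binds the same DNA motif as GATA2, came from few libraries. It had 0 and 7 counts (0 and 4.27 CPM) in SiglecFhi/CD101+ libraries, 0 and 0 counts in Siglec-Fint/CD101- libraries, and 0, 109, 0 and 37 counts (0, 8.57, 0 and 2.46 CPM) in resident libraries. The groups overlapped at 0, and resident replicate 4 held 74.7% of the resident counts. Markers of erythroid cells and megakaryocytes, which also use GATA1, summed to 5589 and 3733 CPM in SiglecFhi/CD101+ libraries, 7679 and 2692 CPM in Siglec-Fint/CD101- libraries, and 9796, 1515, 999 and 2374 CPM in resident libraries. These sums were mostly haemoglobin RNA: in resident replicate 3, Hba-a2, Hba-a1 and Hbb-bs had 24873, 19208 and 12023 of the list's 58616 counts. The erythroid factor gene Klf1 was at 0 in all 8 libraries. The platelet integrin gene Itga2b, 1 of the list's 10 genes, was picked with its values in view. Its larger counts were in the libraries that held Gata1, at 55 in SiglecFhi/CD101+ replicate 2 and 166 and 251 in resident replicates 4 and 6. The list's other platelet genes are not set beside Gata1 here, so no link can be drawn from 1 picked gene. The part of erythroid cells and megakaryocytes in the Gata1 values was not tested.

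Cebpe, the gene of C/EBP epsilon, which in mice is needed for late granulocyte maturation, was near 0 everywhere. It had 0 and 0 counts in SiglecFhi/CD101+ libraries, 6 and 1 counts (4.36 and 0.621 CPM) in Siglec-Fint/CD101- libraries, and 0, 1, 0 and 0 counts in resident libraries. Its pooled level was 113-fold higher in Siglec-Fint/CD101- than in resident libraries with an exact 95% counting interval of 14.5 to 5072, a ratio set by 7 counts against 1. Siglec-Fint/CD101- replicate 2 and resident replicate 4 had 1 count each (0.621 and 0.0786 CPM), so their order was set by library size, under the floor of 3 counts. An exact two-sided permutation test gave p = 0.133, the smallest it allows, and rests on that order. EdgeR without a filter gave an adjusted p of 0.442. Against SiglecFhi/CD101+ libraries, at 0, Cebpe was at least 2.76-fold higher in Siglec-Fint/CD101- libraries, taking 3 counts for the group at 0.

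Trib1 had its lowest values in the same libraries as Gata2. It had 146 and 215 counts (77.4 and 131 CPM) in SiglecFhi/CD101+ libraries, 38 and 9 counts (27.6 and 5.59 CPM) in Siglec-Fint/CD101- libraries, and 666, 1010, 712 and 1527 counts (111, 79.4, 49.9 and 102 CPM) in resident libraries. The Siglec-Fint/CD101- libraries lay below all others. Means were 104 ± 38.0 CPM in SiglecFhi/CD101+ (SD, n = 2), 16.6 ± 15.6 CPM in Siglec-Fint/CD101- (n = 2) and 85.5 ± 27.2 CPM in resident libraries (n = 4).

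In SiglecFhi/CD101+ against resident libraries, the receptor gene Il1rl1 and the marker gene Cd101 were the followed genes with lower values, while Siglecf and Gata2 lay within the resident range and Trib1 overlapped it, with 1 library above it at 131 CPM. The log2 fold change of Cd101 was -4.82 ± 1.81 (SE), with an adjusted p of 0.236 by the quasi-likelihood test of edgeR (Benjamini-Hochberg over all 11828 genes tested). That of Il1rl1 was -4.10 ± 1.42 (edgeR adjusted p = 0.223). Pooled over libraries, the SiglecFhi/CD101+ level was below the resident one 26.8-fold for Cd101 (exact 95% counting interval 9.15 to 130) and 18.5-fold for Il1rl1 (9.38 to 42.9). The pooled Gata2 level was 1.21-fold higher in SiglecFhi/CD101+ libraries (1.08 to 1.36) and that of Trib1 1.26-fold (1.12 to 1.4), intervals that leave out the spread between libraries. With that spread, the log2 fold change was 0.13 ± 0.84 for Gata2 and 0.29 ± 0.74 for Trib1, and both turned negative on library totals alone, at -0.56 and -0.21. For Siglecf it was -0.13 ± 1.32 and it was 0.36 with RLE factors.

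In that comparison edgeR called 0 of the 7 followed genes that passed the filter on low counts (Il5ra and Cebpe did not), against 0.0254% of all genes tested. At an unadjusted p under 0.05, edgeR had 2 of them (Cd101 at 0.0177 and Il1rl1 at 0.0114), beside 16.8% of all genes tested. DESeq2 called those 2 as lower (adjusted p = 0.0316 for Cd101 and 0.0219 for Il1rl1), where it called 8.99% of the genes to which it gave an adjusted p, and limma-voom called 0. The groups did not overlap for those 2, both lower, as for 27.4% of all genes tested. The median log2 fold change of the 7 genes was -0.13 and that of all genes tested -0.72, which other scalings moved to between -1.46 and -0.26. An exact two-sided permutation test of 2 against 4 libraries cannot go below p = 0.133, which Cd101 and Il1rl1 reached.

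**Figure D2:**
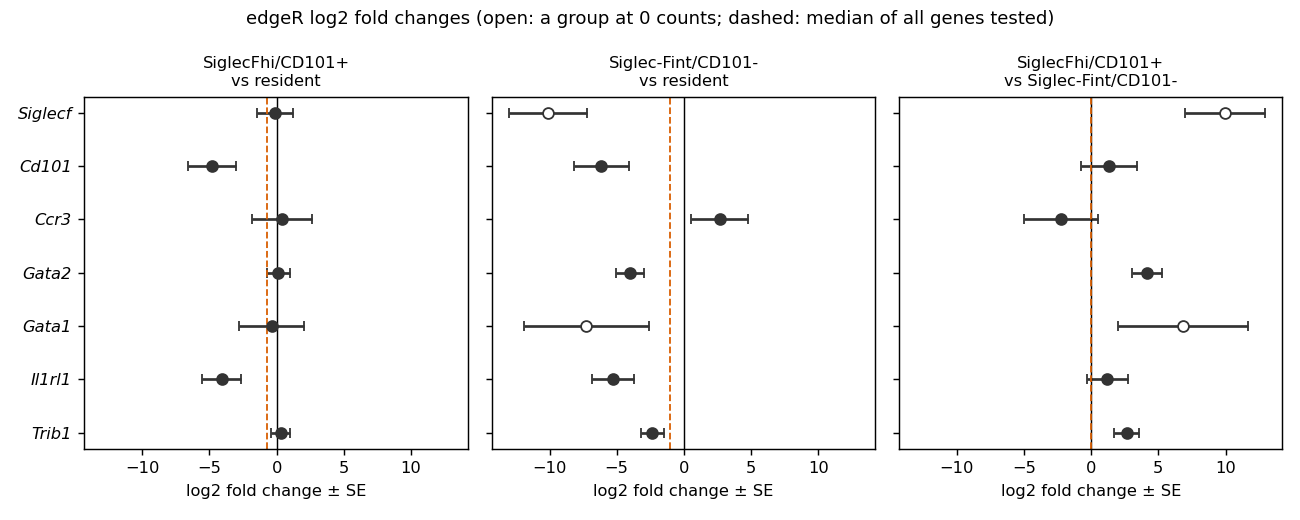
Log2 fold change ± SE from edgeR for the 7 genes that passed the filter, in 3 comparisons, with the median of all 11828 genes tested as a dashed line (-0.72, -1.0 and 0.0 from left to right). Open points mark a group at 0 counts, whose fitted value depends on the prior count, and no point passed an adjusted p of 0.05.

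In Siglec-Fint/CD101- against resident libraries, 5 followed genes had lower values: the sort markers Siglecf and Cd101, the receptor gene Il1rl1, and Gata2 and Trib1. Siglecf, at 0 counts, was at least 20.5-fold lower, taking 3 counts for the Siglec-Fint/CD101- group. Cd101 was lower 68.1-fold on pooled counts (exact 95% counting interval 12.2 to 2693), with 1 count in the Siglec-Fint/CD101- group. For Il1rl1 the pooled ratio was 41.8-fold lower (14.3 to 203) and the log2 fold change -5.27 ± 1.56 (SE; edgeR adjusted p = 0.284). For Gata2 the pooled ratio was 15.7-fold lower (9.37 to 28.8) and the log2 fold change -4.02 ± 1.07 (edgeR adjusted p = 0.249). For Trib1 the pooled ratio was 5.18-fold lower (3.89 to 7.06) and the log2 fold change -2.37 ± 0.86 (edgeR adjusted p = 0.288). Ccr3 had a log2 fold change of 2.66 ± 2.14 (edgeR adjusted p = 0.514), which was -6.62 without Siglec-Fint/CD101- replicate 2, the one library of that group with Ccr3 counts. Both subsets were set against the same 4 resident libraries, so the low values of Cd101 and Il1rl1 in the 2 comparisons are not separate observations of the resident level.

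Here too edgeR called 0 of the 7 genes, against 0.0592% of all genes tested. At an unadjusted p under 0.05, edgeR had 5 (Gata2 at 0.00197, Siglecf at 0.00349, Il1rl1 at 0.00405, Cd101 at 0.00839 and Trib1 at 0.0146), beside 15.7% of all genes. DESeq2 called 4 as lower, where it called 4.86% of the genes to which it gave an adjusted p: Il1rl1 (adjusted p = 0.0115), Siglecf (0.0172), Gata2 (0.0273) and Cd101 (0.0394). Limma-voom called 0, and edgeR without a filter on low counts called Gata2 (adjusted p = 0.0443). For the same 5 genes every Siglec-Fint/CD101- library lay below every resident one, as for 29.3% of all genes tested. The median log2 fold change was -5.27 over the 7 genes and -1.0 over all genes tested, which other scalings moved to between -1.96 and -0.63. One library weighed on some of these values: without Siglec-Fint/CD101- replicate 1, the log2 fold change of Gata2 was -7.04 and that of Trib1 -3.99, and without replicate 2 they were -3.11 and -1.65, while Cd101 was -10.53 without Siglec-Fint/CD101- replicate 2, where the group was at 0.

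In SiglecFhi/CD101+ against Siglec-Fint/CD101- libraries, 3 followed genes had higher values, Siglecf, Gata2 and Trib1, and Cd101 and Il1rl1 did not stand apart. Siglecf was at least 17.8-fold higher, taking 3 counts for the Siglec-Fint/CD101- group at 0. Gata2 was 19.1-fold higher on pooled counts (exact 95% counting interval 11.2 to 35.4), with a log2 fold change of 4.14 ± 1.13 (SE; edgeR adjusted p = 0.207). Trib1 was 6.5-fold higher (4.79 to 9.01), with a log2 fold change of 2.65 ± 0.93 (edgeR adjusted p = 0.239). For Il1rl1 the pooled ratio was 2.26 (0.542 to 13.2) and the log2 fold change 1.18 ± 1.53, and it was -0.02 without SiglecFhi/CD101+ replicate 2. Ccr3 was lower in SiglecFhi/CD101+ libraries by a pooled 4.87-fold (2.21 to 12.2), a ratio that rests on 1 library on either side.

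Between the subsets edgeR called 0 of the 7 genes, against 0.00845% of all genes tested. At an unadjusted p under 0.05, edgeR had 3 (Gata2 at 0.00229, Siglecf at 0.00458 and Trib1 at 0.0122), beside 17.9% of all genes. DESeq2 called Siglecf (adjusted p = 0.00999) and Gata2 (0.0135), where it called 11% of the genes to which it gave an adjusted p, and gave Trib1 0.07, while limma-voom called 0. Groups did not overlap, with higher values in SiglecFhi/CD101+, for those 3 genes, as for 15.8% of all genes tested. An exact two-sided permutation test of 2 against 2 libraries cannot go below p = 0.333, which these 3 genes reached. The log2 fold change of Gata2 was 7.06 without Siglec-Fint/CD101- replicate 1 and 3.13 without replicate 2, and that of Trib1 4.17 and 1.83 in the same order.

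**Figure D3:**
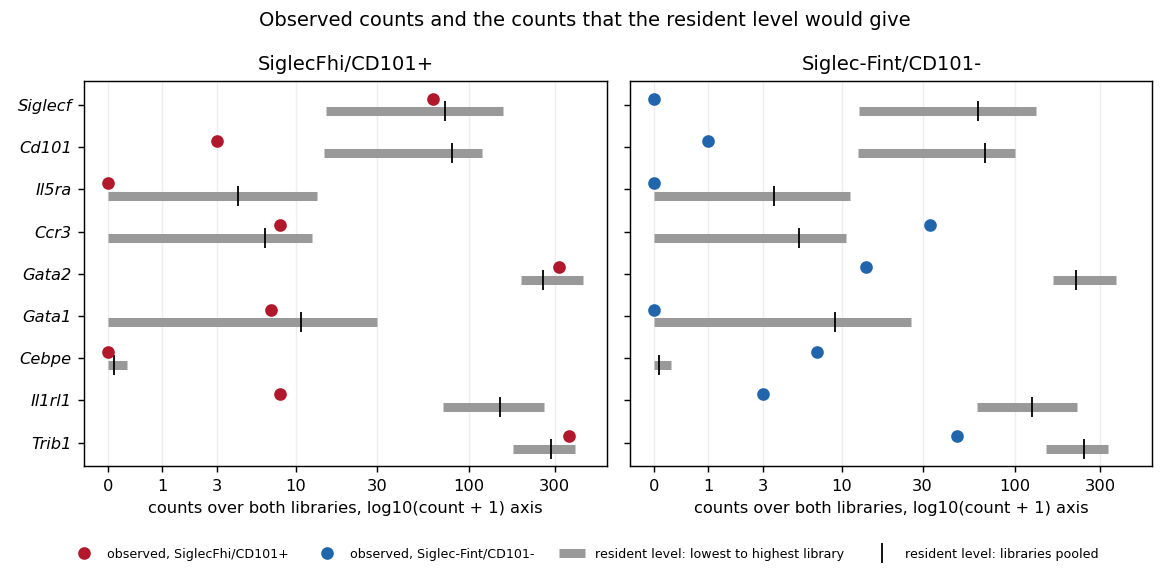
Counts of each gene summed over both libraries of a subset (points), beside the counts the resident level would give at that depth: a bar from the lowest to the highest resident library and a tick for the libraries pooled, on a log10(count + 1) axis, SiglecFhi/CD101+ at left and Siglec-Fint/CD101- at right. Cd101 and Il1rl1 fall left of the bar in both panels, and Siglecf, Gata2 and Trib1 do so in Siglec-Fint/CD101- libraries only.

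The plot sets observed counts beside those that the resident level would give at the adjusted size of the subset libraries. Those counts leave out the spread between subset libraries, and the part of depth was not tested. For Cd101, 3 counts were observed over the SiglecFhi/CD101+ libraries where the lowest resident library would have given 14.8 and the pooled resident level 80.4. For Il1rl1, 8 were observed there against 71.7 and 148 at those levels. Over the Siglec-Fint/CD101- libraries, Siglecf had 0 counts where the lowest resident library would have given 12.8 and the pooled level 61.6, Gata2 had 14 against 164 and 220, and Trib1 had 47 against 149 and 244. For Il5ra, Ccr3, Gata1 and Cebpe the lowest resident library was itself at 0, so no subset value could lie below the resident range.

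The wider gene groups around these 9 were read from lists, and over the 3 comparisons edgeR called 1 of their members, once. That gene was Rnase2a, a ribonuclease of the eosinophil granule family, with 77 and 92 counts in Siglec-Fint/CD101- libraries and 0, 1, 0 and 0 in resident libraries (log2 fold change 10.49 ± 1.75, SE, edgeR adjusted p = 0.0409), a comparison where edgeR called 0.0592% of all genes tested. It also had 145 and 1 counts in SiglecFhi/CD101+ libraries (edgeR adjusted p = 0.0682 against resident), and close copies in the family may share its reads. Of the 9 granule and ribonuclease genes 6 had a count and 5 were tested. DESeq2 called 2 of the list as higher in SiglecFhi/CD101+ and 1 as higher in Siglec-Fint/CD101- against resident libraries. Between the subsets it called 1 as higher in SiglecFhi/CD101+. Its shares of all genes with an adjusted p were 8.99%, 4.86% and 11% in that order. Prg2, the gene of major basic protein, had 73 and 385 counts in SiglecFhi/CD101+ libraries, 1 and 3 in Siglec-Fint/CD101- libraries, and 95, 63, 76 and 121 in resident libraries. Means were 137 ± 139, 1.29 ± 0.803 and 8.55 ± 5.07 CPM in that order. The Siglec-Fint/CD101- libraries lay lowest, as for Siglecf, Gata2 and Trib1. Unlike for those genes, both SiglecFhi/CD101+ libraries lay above every resident one. The log2 fold change of Prg2 there was 4.0 ± 0.95 (edgeR adjusted p = 0.118, DESeq2 adjusted p = 0.00233). Between the subsets the log2 fold change of Prg2 was 6.68 ± 1.47 (edgeR adjusted p = 0.156, DESeq2 adjusted p = 0.00036). Epx, the eosinophil peroxidase gene and a defining marker of the cell type on the labels, had 0 counts in both SiglecFhi/CD101+ and both Siglec-Fint/CD101- libraries and 25 in resident replicate 5 alone, and Prg3 was at 0 in all 8. Epx RNA thus does not mark 7 of the 8 libraries, but Ear2, a ribonuclease gene of the same list, was read in all 8. Its means were 83.1 ± 51.5 CPM in SiglecFhi/CD101+, 123 ± 42.5 CPM in Siglec-Fint/CD101- libraries and 213 ± 68.3 CPM in resident ones. Ear1 was at 7.94 ± 0.0172, 30.4 ± 43.0 and 47.8 ± 25.8 CPM in that order. The genes of the list differ, so Epx alone does not decide the label.

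Around the interleukin-5 receptor, all 7 genes of the common beta chain list were tested and edgeR called 0 in each comparison. DESeq2 called 2 as lower in SiglecFhi/CD101+ against resident and 1 as lower in SiglecFhi/CD101+ between the subsets. Its shares of all genes with an adjusted p were 8.99% and 11% there. Csf2rb, the signalling beta chain that Il5ra needs, was read in every library, with 119 and 148 counts in SiglecFhi/CD101+, 95 and 120 in Siglec-Fint/CD101- libraries and 1206, 2276, 1505 and 3536 in resident ones, or 76.7 ± 19.2, 71.8 ± 3.84 and 180 ± 54.9 CPM. Every subset library lay below every resident one, at a log2 fold change of -1.23 ± 0.59 in SiglecFhi/CD101+ (SE; edgeR adjusted p = 0.301) and -1.33 ± 0.59 in Siglec-Fint/CD101- libraries (edgeR adjusted p = 0.31), and its close copy Csf2rb2 may share reads with it. Csf2ra, the alpha chain for GM-CSF, had 1 and 21 counts in SiglecFhi/CD101+, 315 and 55 in Siglec-Fint/CD101- libraries and 1189, 2148, 2507 and 3348 in resident ones. Means of Csf2ra were 6.67 ± 8.68, 132 ± 138 and 191 ± 24.4 CPM in that order. Its log2 fold change between SiglecFhi/CD101+ and resident libraries was -4.85 ± 1.12 (edgeR adjusted p = 0.111, DESeq2 adjusted p = 0.0129). The medians of the list were -0.84 in SiglecFhi/CD101+ and -1.03 in Siglec-Fint/CD101- against resident libraries, beside -0.72 and -1.0 over all genes tested.

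Around GATA2 and C/EBP epsilon, 13 of 15 other factors of the granulocyte lineages had a count, 11 were tested, and edgeR and DESeq2 called 0 in each comparison. Spi1, the gene of the myeloid factor PU.1, was at 103 ± 72.7 CPM in SiglecFhi/CD101+, 222 ± 48.5 CPM in Siglec-Fint/CD101- libraries and 337 ± 109 CPM in resident ones. The median log2 fold change of the 11 was -0.89 in SiglecFhi/CD101+ and -0.77 in Siglec-Fint/CD101- libraries against resident ones, and SiglecFhi/CD101+ libraries lay below every resident library for 8 of the 11, beside 27.4% of all genes tested. Around ST2, 7 of 8 genes of interleukin-33 signalling were tested, and the list's medians of -0.70 and -0.69 stood beside all-gene medians of -0.72 and -1.0. Irak2, a kinase of that pathway, was at 34.1 ± 36.3 CPM in SiglecFhi/CD101+, 58.7 ± 22.4 CPM in Siglec-Fint/CD101- libraries and 80.7 ± 11.3 CPM in resident ones, and none of the 7 was called by edgeR in any comparison. DESeq2 called 1 gene of the list as lower in SiglecFhi/CD101+ against resident libraries, beside 8.99% of all genes with an adjusted p. The co-receptor gene Il1rap (picked with its values in view) had 4 and 23 counts in SiglecFhi/CD101+, 24 and 1 in Siglec-Fint/CD101- libraries and 84, 82, 138 and 212 in resident ones. TMM-adjusted sizes were 1375383 to 1886276 in subset libraries and 5983948 to 15038154 in resident ones. The raw counts of Il1rap therefore do not compare its level between subset and resident libraries.

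Around TRIB1, edgeR called 0 of the 4 tested genes of the Tribbles list. Cebpa, whose protein TRIB1 targets, had 0 and 37 counts in SiglecFhi/CD101+, 68 and 17 in Siglec-Fint/CD101- libraries and 213, 1038, 552 and 1059 in resident ones. Cop1, the ligase gene, was at 2.24 ± 0.581 CPM in SiglecFhi/CD101+, 18.1 ± 24.8 CPM in Siglec-Fint/CD101- libraries and 18.7 ± 8.02 CPM in resident ones (edgeR adjusted p = 0.347 for SiglecFhi/CD101+ against resident). Of 18 surface and chemotaxis receptors of eosinophils 14 were tested, and edgeR called 0 in each comparison. DESeq2 called 1 as lower in SiglecFhi/CD101+ and 1 in Siglec-Fint/CD101- against resident libraries, beside 8.99% and 4.86% of all genes with an adjusted p. Itgb2, the beta chain of the leukocyte integrins, was at 73.9 ± 49.0, 168 ± 77.0 and 377 ± 121 CPM in SiglecFhi/CD101+, Siglec-Fint/CD101- and resident libraries. Of 12 genes set down as markers of lung eosinophil subsets 11 were tested and edgeR called 0 in each comparison, and Slc3a2, an amino acid transporter chain, was at 96.6 ± 42.8 CPM in SiglecFhi/CD101+, 280 ± 86.1 CPM in Siglec-Fint/CD101- libraries and 275 ± 94.8 CPM in resident ones. Of these 12 genes DESeq2 called 2 as lower in SiglecFhi/CD101+ and 1 in Siglec-Fint/CD101- against resident libraries. Between the subsets it called 1 as lower in SiglecFhi/CD101+, beside 11% of all genes with an adjusted p.

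**Figure D4:**
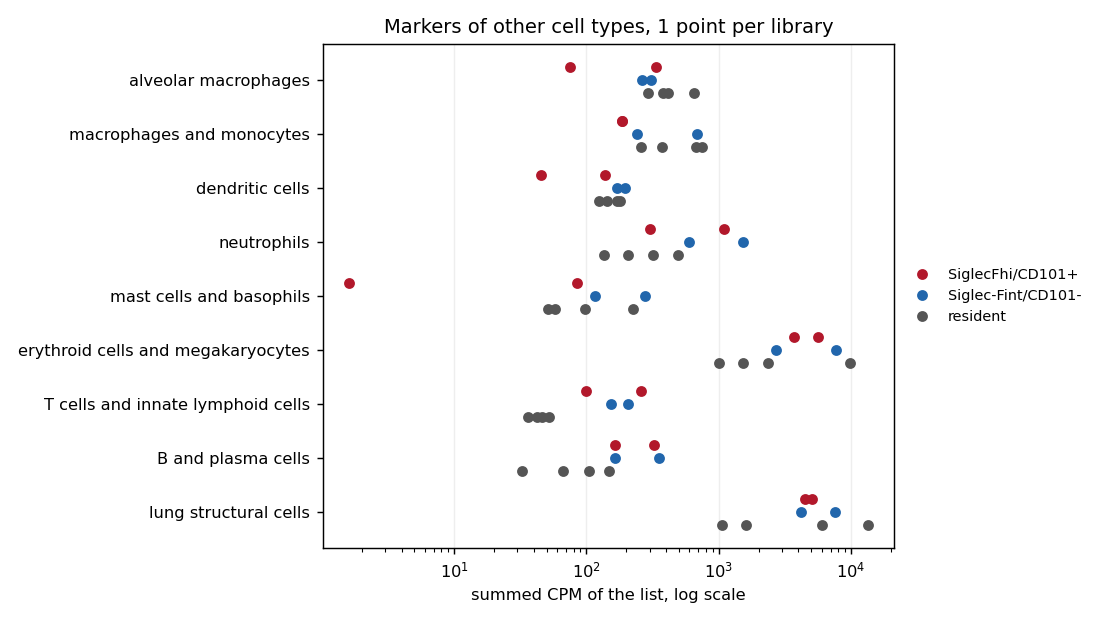
Summed CPM of 9 marker lists of other cell types, 1 point per library on a log axis, for SiglecFhi/CD101+ (n = 2), Siglec-Fint/CD101- (n = 2) and resident libraries (n = 4). Markers of T and innate lymphoid cells lie higher in all 4 subset libraries than in any resident library, and the mast cell and basophil sum is lowest in SiglecFhi/CD101+ replicate 1.

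Markers of other cells were present in every group, and their part in the values of the 9 genes was not tested. Alveolar macrophage markers, which matter for Siglecf, summed to 74.8 to 338 CPM in SiglecFhi/CD101+, 262 to 310 CPM in Siglec-Fint/CD101- and 294 to 649 CPM in resident libraries, with 10, 10 and 10 of the 10 genes read in at least 1 library of the group. The Siglec-Fint/CD101- libraries, at 0 Siglecf counts, thus carried these markers at a level within the range of the SiglecFhi/CD101+ libraries. SiglecFhi/CD101+ replicate 1, with 19 Siglecf counts, held 5 of the 10 markers at 74.8 CPM in sum, and replicate 2, with 44, held all 10 at 338 CPM. Marco, Fabp4 and Krt79 were at 0 in replicate 1 and had 22, 25 and 86 counts in replicate 2, while Car4 had 108 and 86 counts. Mast cell and basophil markers, which matter for Gata2 and Il1rl1, summed to 1.59 to 85.4 CPM in SiglecFhi/CD101+, 115 to 279 CPM in Siglec-Fint/CD101- and 51.1 to 225 CPM in resident libraries. Mcpt4, Mcpt8, Tpsb2, Cma1, Fcer1a and Ms4a2 were at 0 in both subsets. Much of these sums was 1 gene, Hdc, with 1 and 138 of the list's 3 and 140 counts in SiglecFhi/CD101+ libraries. In Siglec-Fint/CD101- libraries it had 326 and 133 of 384 and 186. Kit, the stem cell factor receptor of mast cells, had 1 and 1 counts in SiglecFhi/CD101+, 21 and 47 in Siglec-Fint/CD101- libraries and 113, 235, 321 and 204 in resident ones. Means of Kit were 0.57 ± 0.0563, 22.2 ± 9.84 and 18.4 ± 3.67 CPM in that order, and Siglec-Fint/CD101- and resident libraries overlapped.

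For the other lists the ranges are given in the order SiglecFhi/CD101+, Siglec-Fint/CD101- and resident. Neutrophils also use Cebpe, and their markers summed to 304 to 1098, 593 to 1532 and 136 to 494 CPM. In Siglec-Fint/CD101- libraries Retnlg had 759 and 2337 of the list's 815 and 2468 counts, while Mmp8, Camp and Cxcr2 were at 0. Cxcr2 had 63 and 61 counts in SiglecFhi/CD101+ libraries, and S100a8 was at 34.9 ± 11.9, 13.3 ± 2.31 and 9.49 ± 7.82 CPM. The part of neutrophils in the Cebpe values was not tested. Macrophage and monocyte markers summed to 185 to 187, 242 to 684 and 258 to 752 CPM, and dendritic cell markers to 45.1 to 138, 169 to 197 and 125 to 180 CPM. Erythroid and megakaryocyte markers, mostly haemoglobin genes, summed to 3733 to 5589, 2692 to 7679 and 999 to 9796 CPM. Some T and innate lymphoid cells carry ST2, and markers of these cells summed to 100 to 258, 153 to 206 and 36.1 to 52.1 CPM. The sums were higher in both subsets but rested on genes that differed between replicates. In Siglec-Fint/CD101- libraries Trac had 145 and 0 of the list's 210 and 332 counts, and Cd4 had 0 and 233. In SiglecFhi/CD101+ libraries Trac had 122 and 0 counts and Cd4 had 140 and 95. The part of these cells in the Il1rl1 values was not tested. B and plasma cell markers summed to 165 to 322, 165 to 351 and 32.8 to 147 CPM, and markers of lung structural cells to 4474 to 5032, 4160 to 7535 and 1061 to 13501 CPM.

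The genes whose levels ran most like those of the followed genes were ranked by Pearson's r of log2(CPM + 1) over the 8 libraries, among 5754 genes. The libraries share group, depth and mitochondrial content, and the ranking keeps the highest of many values, so these are descriptions without a test. Nearest to Siglecf were Tiparp (r = 0.978), Ddi2 (0.972) and Stx3 (0.967), and Ddi2, like Siglecf, averaged 0 CPM in Siglec-Fint/CD101- libraries, beside 26.2 CPM in SiglecFhi/CD101+ and 17.7 CPM in resident libraries. Nearest to Gata2 were Tnfaip2 (0.981), March6 (0.98) and Rnf187 (0.978), and nearest to Trib1 were Tm2d2 (0.979), Adam8 (0.977) and Hnrnpd (0.971). Tnfaip2 averaged 42.7 CPM in SiglecFhi/CD101+, 2.13 CPM in Siglec-Fint/CD101- libraries and 29.5 CPM in resident ones. Nearest to Il1rl1 were Fgd3 (0.994), Slc15a4 (0.977) and Hspbp1 (0.972), and nearest to Cd101 were Ccnl1 (0.983), Wfdc17 (0.978) and Rab29 (0.977). Fgd3 averaged 0.915 CPM in SiglecFhi/CD101+, 0.364 CPM in Siglec-Fint/CD101- libraries and 34.9 CPM in resident ones, and Rab29 0.305, 0.621 and 23.2 CPM. For Ccr3 they were Smim13 (0.949), Iigp1 (0.914) and Mdk (0.912), and Il5ra, Gata1 and Cebpe had too few counts or libraries to be ranked.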

How the data were processed

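The deposited tables hold whole-number counts per Ensembl gene, 1 table per library, which the authors made without normalization, as the unequal totals show. Tools named in the submitters' processing notes are DESeq2 1.28.0, HTSeq 0.6.1, Bowtie2 2.2.6, TopHat2 2.1.0, cutadapt 1.10, Trim Galore and FastQC 0.11.5. The genome build, annotation, strand setting and any collapsing of molecular identifiers are details not given in the sources used here, and copies made in amplification may add to the counts. Symbols and positions came from a GENCODE mouse annotation on GRCm38, in which 54409 of 54446 gene rows matched. Samples were grouped by title. The letters in the table names (N, R and I) are not explained by the labels.

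Counts were fitted in R 4.3.3 with edgeR 4.0.16: TMM factors, the filterByExpr filter, 1 mean per group over all 8 libraries, and robust two-sided quasi-likelihood tests, called at an adjusted p under 0.05. The SE of a log2 fold change is its size over the root of its F statistic. Exact permutation tests used log2(CPM + 1). Intervals are exact (Clopper-Pearson) at 95%. The procedure was tested on counts simulated with the spread of these data, where edgeR recovered 0% of 4-fold, 31.3% of 16-fold and 59.1% of 64-fold changes. These changes were set in SiglecFhi/CD101+ against resident libraries, among genes at or above the median level, and 3 unchanged genes were called. A count of 0 called genes therefore does not show that levels were equal. Alternatives were DESeq2 1.42.0, limma-voom (limma 3.58.1), RLE, upper-quartile and no factors, 2 other filters, mitochondrial genes left out, fits on only the 2 groups compared, a replicate block and each library left out.

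The 9 genes and all lists were chosen with earlier results of these data known. All 9 are named, with up to 4 genes of highest mean CPM from each list, and the 3 genes nearest in pattern to each of the 9 with at least 30 counts in at least 4 libraries. Other genes named are the defining markers of other cell types and those the text marks as picked with values in view.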

Additional observations from a re-analysis of the deposited data

Results flagged for a closer look

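In groups of 4 or more libraries, a value was singled out where its gap to the next was large for the group's range by Dixon's test. For normally distributed values chance does so in about 1 of 20 groups, a rate that does not hold for counts at or near 0. For Il5ra, resident replicate 6 stood apart at 3.79 CPM (57 counts), where the other resident libraries had 1, 0 and 0 counts. For Cebpe, resident replicate 4 was singled out at 0.0786 CPM, which is 1 count against 0 in the other 3. With those 3 at 0, any count in replicate 4 would have been singled out. Neither singled-out value enters a call, since both genes fell below the filter on low counts.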

How the results depend on the processing

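Of the fold changes of the 7 genes that passed the filter, 99 of 118 refits in SiglecFhi/CD101+ against resident, 112 of 118 in Siglec-Fint/CD101- against resident and 113 of 117 between the subsets kept their direction and side of the threshold. The genes called among the 9 (0 in each comparison) were 2 with DESeq2 in SiglecFhi/CD101+ against resident, 4 with DESeq2 and 1 without a filter in Siglec-Fint/CD101- against resident, and 2 with DESeq2 between the subsets, and stayed at 0 to 0 with each library left out. In SiglecFhi/CD101+ against resident libraries, the log2 fold change of Siglecf turned to 0.36 (RLE), 0.09 (upper quartile), 0.35 (DESeq2), 0.17 (voom), and 0.69 or 0.32 without resident replicate 4 or SiglecFhi/CD101+ replicate 1. That of Gata1 turned to 0.14 (RLE), 0.13 (DESeq2), 0.89 (voom), and 1.40 or 0.53 without the same 2 libraries. Library totals alone turned Ccr3 to -0.85, Gata2 to -0.56 and Trib1 to -0.21. Without SiglecFhi/CD101+ replicate 1, Ccr3 was -6.62 and Gata2 -0.32, and without replicate 2, Trib1 was -0.24. Without Siglec-Fint/CD101- replicate 2, Ccr3 turned to -6.62 against resident and to 6.92 between the subsets. Il1rl1 between the subsets was -0.02 without SiglecFhi/CD101+ replicate 2. Over all genes, the calls in SiglecFhi/CD101+ against resident (3) were 7 with totals alone, 1065 with DESeq2, 370 without a filter, 1 with the compared groups alone and 1 to 133 with a library left out. In Siglec-Fint/CD101- against resident (7) they were 3, 539, 136, 0 and 0 to 9 in the same order, 2 with voom and 1 with a filter of 20 counts in 2 libraries. Between the subsets (1) they were 1091 with DESeq2, 0 with voom, 85 without a filter, 0 with the compared groups alone and 0 to 2 with a library left out. With 1 library left out, log2 fold changes in SiglecFhi/CD101+ against resident ranged from -1.11 to 0.69 for Siglecf, -6.62 to 1.29 for Ccr3, -0.32 to 0.5 for Gata2, -7.41 to 1.40 for Gata1 and -0.24 to 0.53 for Trib1, that of Ccr3 from -6.62 to 3.6 in Siglec-Fint/CD101- against resident and from -9.24 to 6.92 between the subsets, and that of Il1rl1 between the subsets from -0.02 to 1.84. The subsets share the numbers 1 and 2, but same-numbered libraries did not deviate together (correlation 0.00665), and a replicate block gave 4 calls over all genes and 0 among the 9. Leaving mitochondrial genes out moved 22 of 27 mean CPM values by over 1 SD between replicates, since the denominator shrinks, and other scalings moved 0 of 27 by that much, though on library totals alone mean CPM of Ccr3 was 1.3 (TMM 2.12) in SiglecFhi/CD101+, 5.53 (10.2) in Siglec-Fint/CD101- libraries and 2.47 (1.6) in resident ones, and of Cd101 0.168 (0.31) in Siglec-Fint/CD101-. The cause of the other shifts was not tested. Subset libraries limit the depth: 3 counts equal 1.59 to 2.18 CPM in one, against 0.199 to 0.501 CPM in a resident library.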
